A study of Drosophila melanogaster
Gallus gallus with 8 samples.

Results

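Chromosome 4 of the chicken joins an ancestral microchromosome, now its short arm, to an old macrochromosome, now its long arm. The peaks of chromosome 4 were taken from both deposited lists of DNA:RNA hybrid peaks and divided at position 20000000. A peak that starts below it was counted on the short arm, and a peak that starts at or above it on the long arm. The *primpol* list held 4776 of its 48468 peaks on chromosome 4, with 738 on the short arm and 4038 on the long arm. The wild type list held 3914 of its 41445 peaks there, with 605 on the short arm and 3309 on the long arm.

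R-loops form when a transcript pairs with its DNA template and displaces the other strand, and they are common at the starts and ends of transcribed genes. Birds carry a few large macrochromosomes and many small microchromosomes, and the microchromosomes are rich in GC and in genes. In most other birds the short arm of chicken chromosome 4 is a separate microchromosome, and its genes are found on the X chromosome in mammals. The division by position thus sets DNA of microchromosome origin beside DNA of macrochromosome origin in the same cells and libraries.

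The cells were DT40, a chicken B-cell line. One line is deficient in PrimPol, a primase-polymerase that restarts DNA synthesis beyond a block, and is called *primpol*. The line it was set against is wild type for this gene. Each line gave 2 libraries precipitated with S9.6, an antibody to DNA:RNA hybrids, 1 input library and 1 RNase H-treated library. All cells were mixed with *Drosophila* S2 cells as a calibrator. Each genotype has a single list, to which the labels assign both of its DRIP libraries. The list itself names a single DRIP alignment. The spread between replicates is thus unknown and no value has a replicate error. The *primpol* list rested on 44735404 DRIP and 30302032 input tags, and the wild type list on 46425192 DRIP and 23107894 input tags. All intervals given here are at 95%. They count peaks as if each were independent, which neighbouring peaks are not, and hold no error other than that of counting. Intervals of ratios between the lists also treat the lists as independent, although many peaks of each overlap a peak of the other.

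The first comparison asked whether hybrid peaks were equally dense on both arms. They were sparser on the short arm in both genotypes. In *primpol* the short arm held 36.9 peaks per Mb (Poisson interval 34.3 to 39.7), against 56.7 peaks per Mb on the long arm (55.0 to 58.5). In wild type the short arm held 30.25 peaks per Mb (27.9 to 32.8), against 46.5 peaks per Mb on the long arm (44.9 to 48.1). The density on the short arm was thus 0.650 times that on the long arm in *primpol* (exact interval 0.6004 to 0.704) and 0.651 times in wild type (0.596 to 0.710). Divided by each other, *primpol* over wild type, these ratios gave 0.9996, with an interval of 0.889 to 1.12. A difference in the deficit between the genotypes was thus not detectable, within those bounds.

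**Figure D1:**
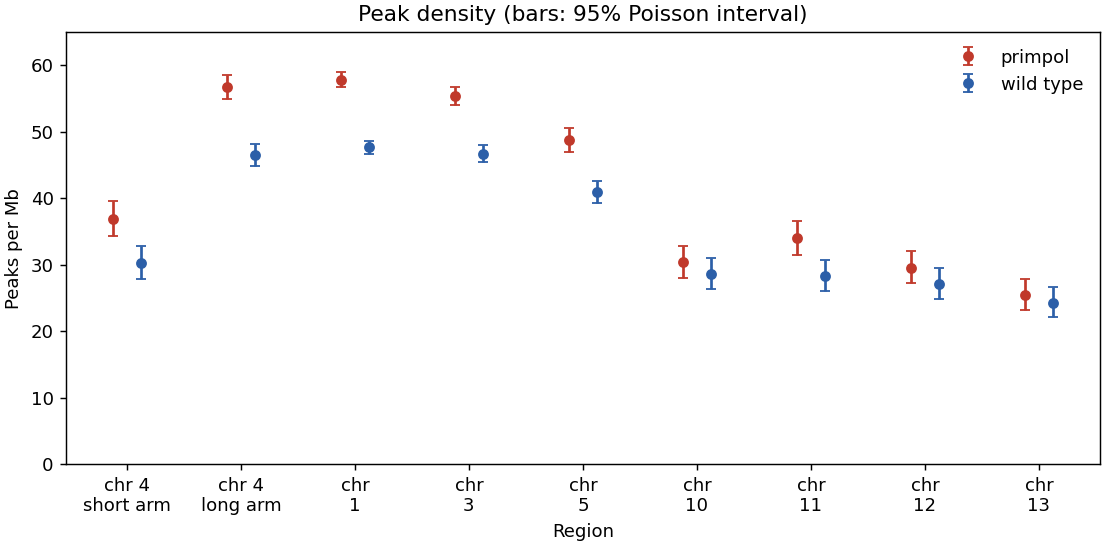
Peaks per Mb (vertical axis) on the short and long arms of chromosome 4 and on 7 other chromosomes (horizontal axis), for *primpol* (red) and wild type (blue). Points are densities and bars are 95% Poisson intervals. The short arm is at 36.9 peaks per Mb in *primpol* and 30.25 in wild type. Of the other chromosomes plotted, chromosome 11 in *primpol* and chromosome 10 in wild type lie nearest to it. The long arm, at 56.7 in *primpol* and 46.5 in wild type, lies near chromosomes 1 and 3. Chromosomes 6 to 9 are not plotted.

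The part of the DNA covered by peaks differed between the arms in the same way. Peaks covered 5.06% of the short arm and 8.04% of the long arm in *primpol*. In wild type they covered 3.98% of the short arm and 6.22% of the long arm. The ratio of covered length was 0.630 in *primpol* and 0.639 in wild type, close to the ratio of density in each list.

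The short arm was then set against whole chromosomes of about its own length. In *primpol*, chromosome 10 had 30.3 peaks per Mb, chromosome 11 had 33.98, chromosome 12 had 29.5 and chromosome 13 had 25.4. In wild type the densities were 28.6 on chromosome 10, 28.3 on chromosome 11, 27.1 on chromosome 12 and 24.3 on chromosome 13. The short arm was the denser in all of these comparisons. Over chromosome 11 its density was 1.09 times as high in *primpol* (0.977 to 1.21) and 1.07 times in wild type (0.951 to 1.199), which is within counting error. Over chromosome 13 it was 1.45 times as high in *primpol* (1.29 to 1.63) and 1.25 times in wild type (1.10 to 1.41), beyond counting error in both. Over chromosomes 10 and 12 the difference exceeded counting error in *primpol*, at 1.22 times (1.09 to 1.36) and 1.25 times (1.12 to 1.39). In wild type it did not, at 1.06 times for chromosome 10 (0.943 to 1.19) and 1.12 times for chromosome 12 (0.993 to 1.26). Chromosomes 6 to 9, which are longer, were not among these. Their densities were 36.8, 38.6, 37.4 and 33.3 peaks per Mb in *primpol*, in order of number. In wild type they were 32.2, 32.7, 33.7 and 30.0. Of chromosomes 1 to 15, the nearest to the short arm were thus chromosome 6 in *primpol* and chromosome 9 in wild type.

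The long arm was set against the large chromosomes in turn. Its density was 0.981 times that of chromosome 1 in *primpol* (0.946 to 1.02) and 0.975 times in wild type (0.937 to 1.02). Over chromosome 3 the ratio was 1.02 in *primpol* (0.984 to 1.07) and 0.996 in wild type (0.954 to 1.04). The long arm and these chromosomes did not differ beyond counting error. Chromosome 5 was sparser, and the long arm was 1.16 times as dense in *primpol* (1.11 to 1.22) and 1.14 times in wild type (1.08 to 1.197).

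The short arm was also set against other segments of its length. Chromosomes 1 to 11 were cut into 33 complete segments of 20 Mb from position 0, the short arm among them. In *primpol*, 4 segments were sparser than the short arm, namely the first segments of chromosomes 3, 9, 10 and 11. Those of chromosomes 9, 10 and 11 are nearly whole chromosomes, of 24.0, 20.4 and 20.2 Mb, and only that of chromosome 3 is the end of a large one. It held 36.75 peaks per Mb, nearly the value of the short arm. In wild type, 3 segments were sparser, those of chromosomes 9, 10 and 11, while the first segment of chromosome 3, at 34.85 peaks per Mb, was denser than the short arm. The first segments of chromosomes 1, 2, 3 and 5 ranged from 36.75 to 55.25 peaks per Mb in *primpol* and from 34.85 to 51.95 in wild type. The 3 complete segments of the long arm held 62.2, 50.9 and 62.15 peaks per Mb in *primpol*, and 50.5, 42.75 and 49.35 in wild type, in order from the division.

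Within the short arm, peaks were far from even. In the 20 windows of 1 Mb, the count ranged from 4 to 96 in *primpol*, with a median of 33.5, and from 6 to 61 in wild type, with a median of 27.0. In the 71 complete windows of the long arm it ranged from 13 to 93 in *primpol*, with a median of 56.0, and from 19 to 76 in wild type, with a median of 47.0. The ratio of variance to mean over the windows was 14.2 on the short arm and 6.88 on the long arm in *primpol*, and 6.72 on the short arm and 4.27 on the long arm in wild type. The short arm was thus more clustered than the long arm in both lists, and more so in *primpol*. Poisson counts would give a ratio near 1, so the Poisson intervals of density understate the spread along both arms.

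The highest counts fell in a single region. The windows at 6 to 7 Mb and 7 to 8 Mb held 96 and 87 peaks in *primpol*, against 60 and 61 in wild type. The highest count of the long arm was 93 in *primpol* and 76 in wild type, so the region was close to it in *primpol* only. The 4 Mb from 4 to 8 Mb held 250 of the 738 short arm peaks in *primpol* (33.9%) and 186 of the 605 in wild type (30.7%). The densities there were 62.5 peaks per Mb in *primpol* and 46.5 in wild type. With this region left out, the ratio of density, short over long arm, was 0.537 in *primpol* and 0.563 in wild type. The first 4 Mb were the sparsest, with 14.25 peaks per Mb in *primpol* and 17.25 in wild type. With these left out instead, the ratio was 0.750 in *primpol* and 0.720 in wild type. The arm was the sparser with either part left out.

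**Figure D2:**
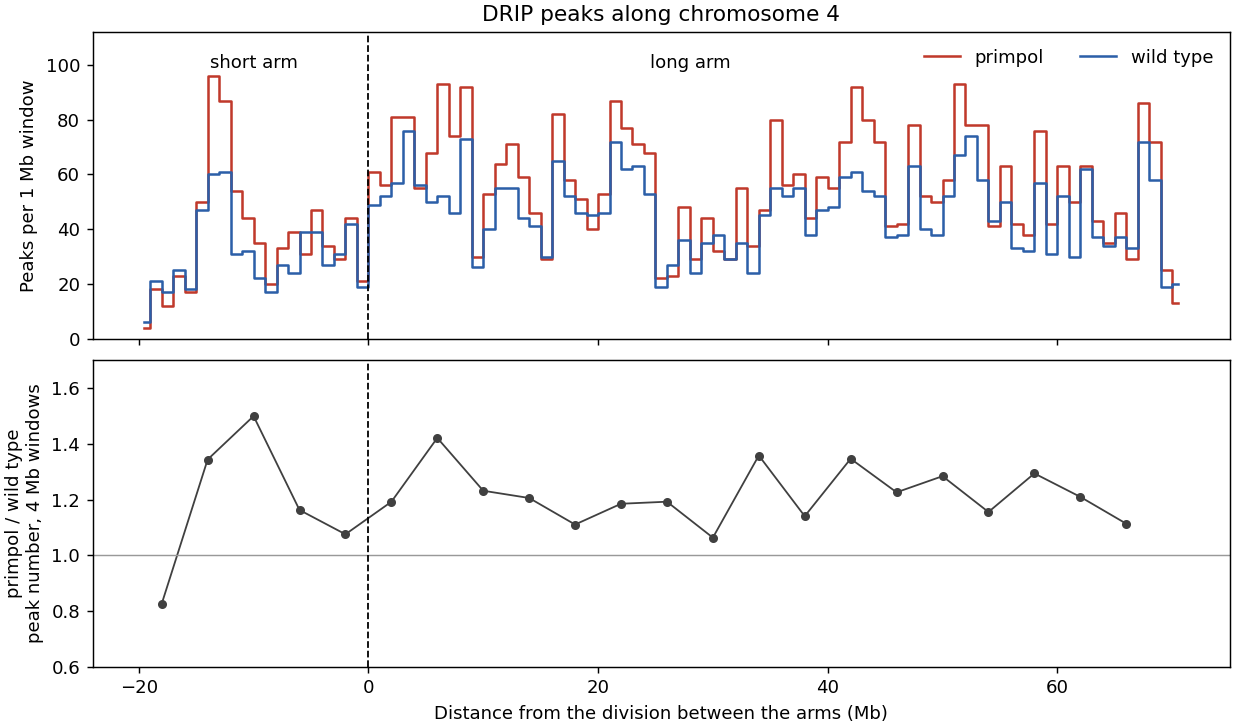
The upper panel plots peaks per 1 Mb window along chromosome 4 (vertical axis) against the distance from the division between the arms in Mb (horizontal axis, short arm to the left), for *primpol* (red) and wild type (blue). The lower panel plots the ratio of peak number, *primpol* over wild type, in 4 Mb windows. The short arm has 1 dense region, with up to 96 *primpol* and 61 wild type peaks per window, and its outermost 4 Mb is the only window with a ratio below 1, at 0.826.

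Stretches without peaks were a second feature of the short arm. Of its 200 bins of 100 kb, 38 (19.0%) held no peak in *primpol* and 38 (19.0%) held none in wild type. On the long arm, 21 of 711 bins (2.95%) were empty in *primpol* and 26 (3.66%) in wild type. Stretches of 100 kb or more without a peak made up 38.1% of the short arm and 9.02% of the long arm in *primpol*. In wild type they made up 34.3% of the short arm and 12.99% of the long arm. With fewer peaks, the short arm would hold more long gaps by number alone, and the share expected from number was not computed. Assembly gaps and sequence without uniquely matching reads were not examined. Their part in these stretches and in the arm lengths is thus unknown. Other chromosomes were not measured in this way.

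The longest stretches lay towards both ends of the short arm. The longest ran over 808 kb in *primpol*, at chr4:275920-1083890, and over 876 kb in wild type, at chr4:207897-1083804. The next ran over 595 kb in *primpol*, at chr4:18835849-19431120, and over 723 kb in wild type, at chr4:18838213-19560993, close to the division between the arms. No peak of either list lay in the 593 kb at chr4:18838213-19431120. The longest gap on the long arm was shorter, at 289 kb in *primpol* and 257 kb in wild type. Coordinates are those of the Galgal5 assembly.

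The last peak below the division was at chr4:19979271-19979884 in *primpol*, with a height of 13.3, and at chr4:19992014-19992887 in wild type, with a height of 12.6. The first peak above the division was at chr4:20018919-20019460 in *primpol*, with a height of 14.55, and at chr4:20016082-20016760 in wild type, with a height of 12.2. Their height percentiles within the lists were 8.10 and 14.6 in *primpol* and 26.8 and 20.1 in wild type, so that none was a high peak. When the division was moved by 1 Mb either way, the ratio of density lay between 0.669 and 0.671 in both lists.

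The next comparison asked whether the peaks themselves differed between the arms. Width hardly did. The median width in *primpol* was 827.5 bp on the short arm (interval of the median 774 to 890.0) and 872 bp on the long arm (847 to 905). In wild type it was 813 bp on the short arm (742 to 870.0) and 836 bp on the long arm (801 to 867). The intervals overlapped in both lists, and the ratio of the medians was 0.949 in *primpol* (0.855 to 1.05) and 0.972 in wild type (0.856 to 1.09). The quartiles were close as well, at 462.5 and 1725.75 bp on the short arm and 468 and 1825 bp on the long arm in *primpol*.

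The share of very wide peaks did not differ between the arms beyond counting error. In *primpol*, 27 of the short arm peaks (3.66%) and 137 of the long arm peaks (3.39%) were 5 kb or wider, where the whole list had 3.12%. In wild type these were 24 short arm peaks (3.97%) and 102 long arm peaks (3.08%), where the whole list had 2.78%. The difference between the arms was 0.266 percentage points in *primpol* (-1.02 to 1.96) and 0.884 points in wild type (-0.555 to 2.83). The widest short arm peak in *primpol* was at chr4:5914206-5924562, 10357 bp wide, and it spanned 2 wild type peaks of 1815 and 5522 bp. The widest in wild type was at chr4:6298648-6309012, 10365 bp wide, and its *primpol* partner was 10145 bp wide. Both lay in the dense region of the arm, at 4 to 8 Mb. On the long arm the widest *primpol* peak was at chr4:72338229-72349801, 11573 bp wide, and covered 2 wild type peaks. The widest wild type peak there, at chr4:62111823-62122876 and 11054 bp wide, matched 2 *primpol* peaks of 6848 and 3544 bp.

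Height is the fragment pileup averaged over a peak, on the scale of the input library of its own list, so heights are compared here within a list only. Peaks on the short arm were slightly the higher. The median height in *primpol* was 17.6 on the short arm (17.4 to 17.8) and 17.0 on the long arm (16.9 to 17.1). The wild type medians were 13.7 on the short arm (13.5 to 13.8) and 13.2 on the long arm (13.2 to 13.3). The ratio was 1.03 in both lists, with bounds of 1.02 and 1.05 in *primpol* and 1.01 and 1.05 in wild type.

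The local background differed between the arms by a little more than height did. Lambda is the pileup that the peak caller took as background around a peak, from the input library, and was computed from height and fold enrichment. Its median in *primpol* was 7.09 on the short arm (7.01 to 7.21) and 6.72 on the long arm (6.68 to 6.76). The wild type values were 4.73 on the short arm (4.65 to 4.81) and 4.50 on the long arm (4.47 to 4.52). The short arm was thus 1.06 times as high in *primpol* (1.04 to 1.08) and 1.05 times in wild type (1.03 to 1.08). Relative to the median of its own list, lambda was 1.01 on the short arm and 0.958 on the long arm in *primpol*, and 0.992 on the short arm and 0.942 on the long arm in wild type. The values of the short arm were within the range of chromosomes 10 to 13, which ran from 0.962 to 1.03 in *primpol* and from 0.941 to 1.02 in wild type.

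Fold enrichment, the ratio of height to lambda with 1 added to each, went the other way. Its median in *primpol* was 2.28 on the short arm (2.27 to 2.30) and 2.32 on the long arm (2.31 to 2.33). In wild type it was 2.54 on the short arm (2.53 to 2.56) and 2.58 on the long arm (2.57 to 2.59). The ratio was 0.982 in *primpol* (0.974 to 0.996) and 0.986 in wild type (0.978 to 0.995). Short arm peaks were therefore a little higher over a background that was higher by more, and a little less enriched. Peaks lay near the caller's limit. In *primpol* the median −log10 q-value was 1.52 on the short arm and 1.54 on the long arm, and the lowest in the list was 1.00. Chromosome 2 in this list had a relative lambda of 1.43 and a fold enrichment of 2.14, and chromosome Z had 0.494 and 2.68. How far height and fold enrichment followed from lambda was not tested. The differences between the arms were small beside the spread among peaks of either arm. In *primpol* the quartiles of height were 16.2 and 19.1 on the short arm and 15.6 and 18.6 on the long arm.

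**Figure D3:**
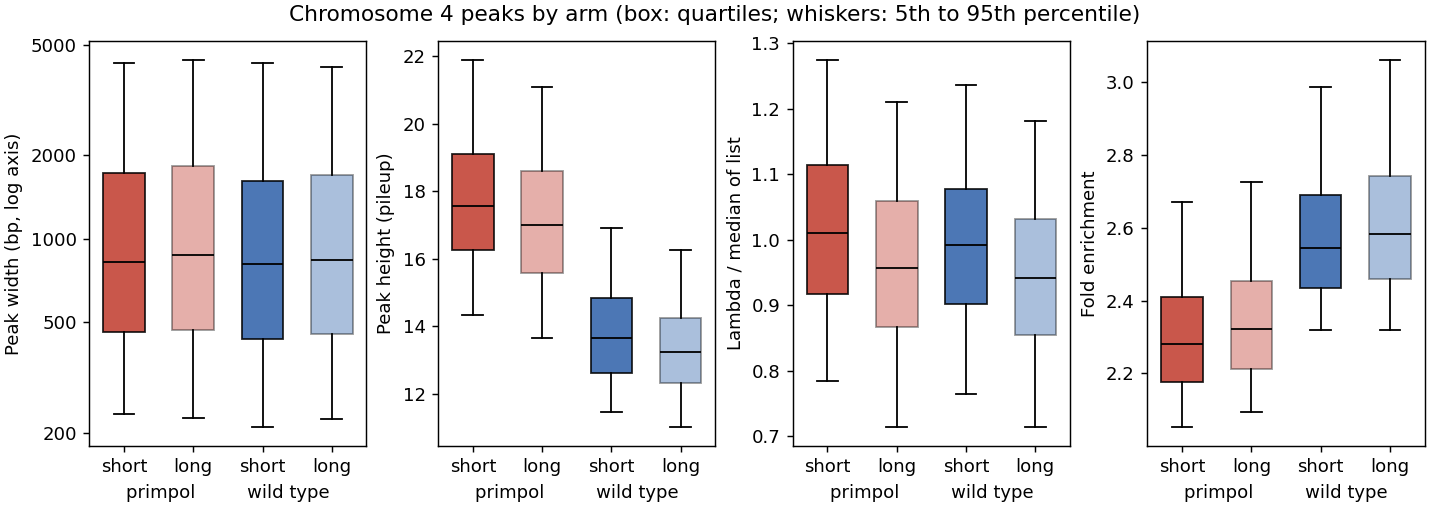
Width in bp (log axis), height as fragment pileup, lambda relative to the median of the list, and fold enrichment of chromosome 4 peaks, by arm, for *primpol* (red) and wild type (blue). Boxes give quartiles and the median and whiskers run from the 5th to the 95th percentile. In both lists the short arm has the higher height and lambda and the lower fold enrichment, with median ratios of 1.03, 1.06 and 0.982 in *primpol*.

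Peaks over a low background were rarer on the short arm than on the long arm, and rarer on both than in the rest of each list without chromosomes 2 and Z. Relative lambda was under 0.7 at 8 short arm peaks (1.08%) and 154 long arm peaks (3.81%) in *primpol*, a difference of -2.73 percentage points (-3.56 to -1.55). In the wild type list it was under 0.7 at 15 short arm peaks (2.48%) and 139 long arm peaks (4.201%), a difference of -1.72 points (-2.94 to -0.0281). The share in the rest was 7.55% in *primpol* and 7.63% in wild type. Relative lambda of 1.3 or more was found at 29 short arm peaks (3.93%) and 66 long arm peaks (1.63%) in *primpol*, 2.30 points apart (1.04 to 3.99). In wild type these were 13 (2.15%) and 43 (1.299%), 0.849 points apart (-0.145 to 2.38), which is within counting error. The rest had 3.76% in *primpol* and 3.88% in wild type, so that in *primpol* the short arm was near the rest and the long arm was the lower.

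Few peaks on either arm were strong. At least 5 on the −log10 scale of the q-value was the level of 2 short arm and 8 long arm peaks in *primpol*, or 0.209% of the chromosome 4 peaks, where the whole list had 1.10%. In wild type 1 short arm and 4 long arm peaks stood at that level, or 0.128%, where the whole list had 0.820%. Against the rest of each list, the share on chromosome 4 differed by -0.992 percentage points in *primpol* (-1.14 to -0.791) and by -0.765 points in wild type (-0.889 to -0.572). Other large chromosomes had a low share too. It was 0.273% on chromosome 1, 0.0973% on chromosome 3 and 0.172% on chromosome 5 in *primpol*. In wild type it was 0.160%, 0.115% and 0.368%, in the same order. A low share was thus not particular to chromosome 4. The highest 10% of each list by height likewise held 7 short arm (0.949%) and 42 long arm peaks (1.04%) in *primpol*. In wild type it held 10 short arm (1.65%) and 35 long arm peaks (1.06%). The share was low on other large chromosomes too. It was 1.03% on chromosome 1, 0.989% on chromosome 3 and 1.62% on chromosome 5 in *primpol*. In wild type it was 1.53%, 1.58% and 2.49%, in the same order. Chromosome 2, where relative lambda was 1.43 in *primpol* and 1.38 in wild type, held 82.2% of the highest 10% in *primpol* and 73.4% in wild type. Its part in the low shares of chromosome 4 and of these other chromosomes was not tested. By fold enrichment, the highest 10% held 29 short arm peaks (3.93%) and 239 long arm peaks (5.92%) in *primpol*, a difference of -1.99 percentage points (-3.40 to -0.196). In wild type it held 31 (5.12%) and 237 (7.16%), a difference of -2.04 points (-3.80 to 0.180). Both differences were nearly equal, although only that in *primpol* exceeded counting error, so they show no difference between the genotypes.

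The highest peak on the short arm was the same in both lists. It lay at chr4:9552582-9553062 in *primpol*, with a height of 27.9, and at chr4:9552590-9553045 in wild type, with a height of 23.1. Its fold enrichment was 3.77 in *primpol* and 3.79 in wild type, and no other short arm peak reached 5 on the −log10 scale of q in both lists. It ranked 814 by height in *primpol* and 348 in wild type. In *primpol* the next peaks of the arm were nearly as high, and in wild type the next had a height of 19.7.

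The next highest were less alike. At chr4:3540229-3540463 the *primpol* peak was 235 bp wide with a height of 27.3, and its wild type partner was 2442 bp wide with a height of 18.5. At chr4:3406897-3407758 the *primpol* peak was 862 bp wide with a height of 26.5, and its wild type partner was 2832 bp wide with a height of 19.6. In both places the *primpol* peak was much narrower than its partner and lay towards its right end. At the second highest wild type peak of the arm, chr4:14359695-14360608, the *primpol* partner had a height of 19.6, and the wild type peak one of 19.7.

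On the long arm, a single peak stood apart in both lists. The highest *primpol* peak of the arm lay at chr4:25106796-25109132, with a height of 35.7, a fold enrichment of 7.43 and a −log10 q-value of 18.6. Its wild type partner at chr4:25106808-25109128 had a height of 22.7, a fold enrichment of 6.71 and a −log10 q-value of 10.75. It was the second highest wild type peak of the arm. This fold enrichment was the highest on chromosome 4 in both lists, and the ends of the peak differed by at most 12 bp between them. The background there was low, with a relative lambda of 0.561 in *primpol* and 0.529 in wild type.

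The nearest peak to its left belonged to the pair with the largest rise in height percentile, *primpol* minus wild type, among pairs matched 1 to 1 in which either peak was in the higher 50% of its list. The rise was of 86.7 points. The *primpol* peak at chr4:25087898-25088339 had a height of 25.7 and a relative lambda of 0.822, and its wild type partner at chr4:25087974-25088300 had a height of 11.3 and a relative lambda of 0.474. The lambda of the wild type peak, 2.26, was equal to the lowest that the caller allows in that list. The fold enrichments were nearly equal, at 3.95 in *primpol* and 3.78 in wild type. Of the peaks beside this pair and the highest peak, the *primpol* peak at chr4:25052054-25052623, to the left, had a relative lambda of 0.521 and no wild type partner. The nearest pair to the right, at chr4:25112963-25113412 in *primpol*, had a relative lambda of 0.855 in *primpol* and 0.782 in wild type. Farther right, from chr4:25123395 to chr4:25157483, it was between 0.901 and 1.14 in *primpol* and between 0.978 and 1.13 in wild type. A second peak of this kind, at chr4:76725006-76725360 in *primpol* and chr4:76725017-76725338 in wild type, had a relative lambda of 0.528 in *primpol* and 0.474 in wild type, with fold enrichments of 5.56 in *primpol* and 5.22 in wild type. It was picked after its values were seen.

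The remaining leading peaks of the long arm differed more between the lists. In *primpol* the second, at chr4:60056911-60057284, had a height of 28.7, and its wild type partner had a height of 15.75. The third, at chr4:62282412-62292769, was 10358 bp wide with a height of 27.97, and its wild type partner was 9480 bp wide with a height of 18.6. At the highest wild type peak, chr4:41522827-41525313, the *primpol* partner had a height of 26.4 and the wild type peak one of 23.3. At the third, chr4:69415818-69417590, the *primpol* partner had a height of 20.3 and the wild type peak one of 22.5.

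The last comparison asked whether the lists differed in the same way on both arms. The number of peaks in *primpol* was 1.22 times that in wild type on the short arm (1.09 to 1.36) and 1.22 times on the long arm (1.17 to 1.28). As shares of the lists, *primpol* over wild type, the ratios were 1.04 on the short arm (0.938 to 1.16) and 1.04 on the long arm (0.999 to 1.09), both within counting error of 1. The *primpol* input was the deeper, and once the *primpol* list was thinned to the depth of the wild type input the ratios of shares were 0.961 on the short arm (0.849 to 1.09) and 0.993 on the long arm (0.944 to 1.04). The thinning is approximate, since it adds no sampling noise, and on simulated data it kept slightly too few peaks. Those data were single regions, not called peaks, so the shortfall in the real list is unknown. The thinning left 29511 of the 48468 *primpol* peaks, fewer than the 41445 of wild type. For the whole chromosome the ratio of shares, without thinning, was 1.04 (1.002 to 1.09), only just beyond counting error.

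Window by window, the ratio is to be read against that of the whole lists, which was 1.17. Of its 20 windows of 1 Mb, 13 held more peaks in *primpol*, a share with a Wilson interval of 43.3 to 81.9%. On the long arm these were 62 of 71 windows (87.3%, 77.6 to 93.2%). The intervals overlap, and counts per window were lower on the short arm. Of the 7 short arm windows with more wild type peaks, 5 were the first 5 of the chromosome, with 74 peaks in *primpol* and 87 in wild type together. That ratio was 0.851 (0.615 to 1.17), within counting error of 1. In windows of 4 Mb, the first held 57 *primpol* and 69 wild type peaks, a ratio of 0.826 (0.571 to 1.19). The next held 250 *primpol* and 186 wild type peaks, a ratio of 1.34 (1.11 to 1.63), and the one at 8 to 12 Mb held 153 *primpol* and 102 wild type peaks, a ratio of 1.5 (1.16 to 1.95). The remaining windows of the arm had ratios of 1.16 and 1.08, both within counting error of 1. The intervals of all 5 windows held the ratio of the whole lists, so no window differed from it beyond counting error. All 17 complete windows of the long arm had ratios above 1, from 1.06 to 1.42. On chromosomes 1 to 15 without chromosome 4, 27 of 181 such windows had a ratio below 1, and the range was 0.652 to 1.44.

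Sharing between the lists was compared as the part of peaks that overlapped a peak of the other list by at least 1 bp. In *primpol*, 413 short arm peaks (55.96%, 52.4 to 59.5%) and 2276 long arm peaks (56.4%, 54.8 to 57.9%) had a wild type partner, where the whole list had 57.8%. In wild type, 414 short arm peaks (68.4%, 64.6 to 72.0%) and 2361 long arm peaks (71.4%, 69.8 to 72.9%) had a *primpol* partner, where the whole list had 69.7%. The difference between the arms, short minus long, was -0.402 percentage points in *primpol* (-4.31 to 3.46) and -2.92 points in wild type (-7.02 to 0.984). Neither exceeded counting error, and all shares were near those of the whole lists. These shares pool unlike heights. Peaks from height percentile 67 upwards made up 23.2% of the short arm and 16.8% of the long arm peaks in *primpol*. In wild type they made up 21.2% of the short arm and 12.9% of the long arm peaks. Sharing by height class is given below. Against the rest of its list, chromosome 4 differed by -1.63 percentage points in *primpol* (-3.12 to -0.155) and by 1.34 points in wild type (-0.175 to 2.82). Against chromosome 11 the short arm differed by -0.661 points in *primpol* (-5.80 to 4.48) and by 0.367 points in wild type (-4.93 to 5.68). Against chromosome 10 it differed by 0.137 points in *primpol* (-5.15 to 5.43) and was 7.78 points higher in wild type (2.33 to 13.2). Against chromosome 12 the difference was within counting error in both lists. Against chromosome 13 it differed by -5.28 points in *primpol* (-10.9 to 0.441) and was 7.67 points higher in wild type (1.83 to 13.5).

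**Figure D4:**
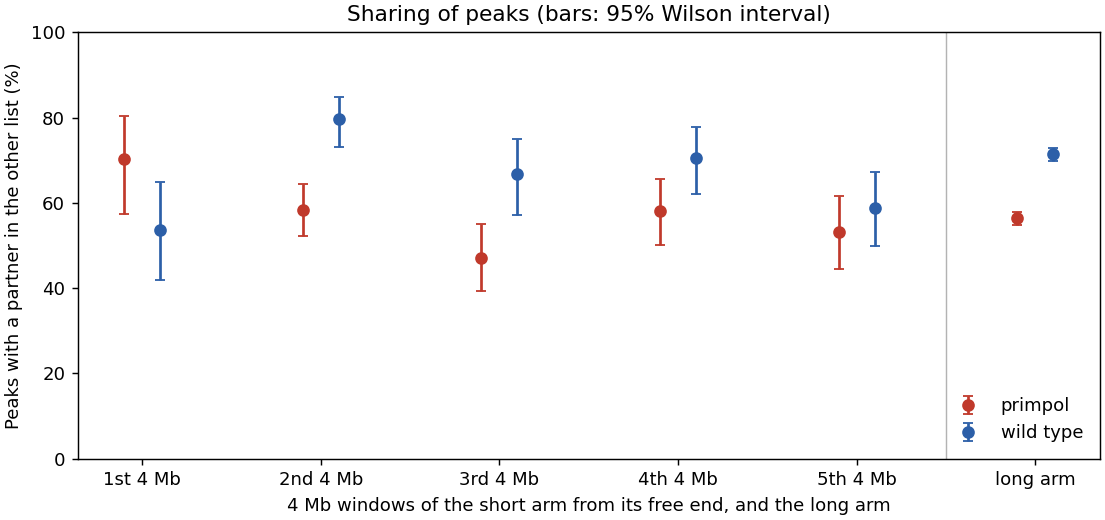
Percentage of peaks with a partner in the other list (vertical axis) in the 5 windows of 4 Mb of the short arm, from its free end inwards, and on the whole long arm (horizontal axis), for *primpol* (red) and wild type (blue). Bars are 95% Wilson intervals. In the first window the *primpol* share, 70.2%, is above the wild type share, 53.6%, and elsewhere the order is the other way round.

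Along the short arm the shares were uneven. In its first 4 Mb, 40 of 57 *primpol* peaks (70.2%, 57.3 to 80.5%) and 37 of 69 wild type peaks (53.6%, 42.0 to 64.9%) had a partner. In the dense region at 4 to 8 Mb these were 146 of 250 *primpol* peaks (58.4%, 52.2 to 64.3%) and 148 of 186 wild type peaks (79.6%, 73.2 to 84.7%). The wild type share was the higher there, in the remaining 3 windows of the arm and in all 17 complete windows of the long arm. Without the dense region, the difference between the arms in wild type was -7.87 percentage points (-12.8 to -3.13), beyond counting error. In *primpol* it was then -1.65 points (-6.34 to 2.97). The region left out had the highest wild type share of the 5 windows. With the first 4 Mb, which had the lowest, left out instead, the difference in wild type was -1.02 points (-5.29 to 3.01), within counting error, so the value depends on which window is left out. The share in the longer list is lower by number alone where one list has more peaks than the other.

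Sharing went with width and height on both arms, as in the whole lists. Of peaks 1500 bp or wider, 86.7% on the short arm and 89.6% on the long arm had a partner in *primpol*, and 99.4% on the short arm and 96.1% on the long arm in wild type. The whole lists had 90.1% in *primpol* and 95.9% in wild type. A single wild type peak of this class on the short arm, of 163, had none. Of peaks under 500 bp, 33.99% on the short arm and 31.9% on the long arm had a partner in *primpol*, and 46.2% on the short arm and 48.3% on the long arm in wild type, where the whole lists had 33.8% in *primpol* and 48.6% in wild type. By height, of *primpol* peaks below percentile 33 of their list 30.5% on the short arm and 36.1% on the long arm had a partner, and of those from percentile 67 upwards 78.9% on the short arm and 85.3% on the long arm. The whole *primpol* list had 36.1% and 76.2% in these classes. In wild type the lowest class had 55.9% on the short arm and 59.7% on the long arm, and the highest 81.25% and 86.7%. The class between had 58.9% and 62.7% in *primpol*, and 71.8% and 78.3% in wild type. The whole wild type list had 58.1%, 71.6% and 79.3%, in rising order of height. The short arm was thus lower than the long arm in every height class of both lists, although their intervals overlapped in each. Peaks without a partner had a median width of 577 bp on the short arm and 566 bp on the long arm in *primpol*, and of 482 bp on the short arm and 492.5 bp on the long arm in wild type.

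Pairs in which each peak overlapped the other alone allowed the same place to be compared in both lists. There were 311 such pairs on the short arm and 1751 on the long arm, by the start of the wild type peak. The *primpol* peak was the wider in 190 short arm pairs (61.1%, 55.6 to 66.3%) and in 1061 long arm pairs (60.6%, 58.3 to 62.9%), where all pairs had 60.0%. The median ratio of lambda, *primpol* over wild type, was 1.53 on both arms, and that of height was 1.33 on the short arm and 1.31 on the long arm. Relative to the lists' own medians, the ratio of lambda was 1.04 on both arms, and all pairs had 1.03. The local background of the arms thus kept nearly the same relation in both lists.

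The order of heights was kept less well on the short arm. The Spearman correlation of height over pairs was 0.443 on the short arm and 0.552 on the long arm, and that of width was 0.601 on the short arm and 0.611 on the long arm. For lambda it was 0.323 on the short arm and 0.480 on the long arm. For fold enrichment the arms were closer, at 0.314 on the short arm and 0.359 on the long arm. These describe pairs that share libraries and depth. Over all pairs of the lists the correlation of height was 0.780, and over those of chromosomes 10 to 13 it was 0.556. All pairs of the lists span chromosomes of unlike height, with *primpol* medians of 22.6 on chromosome 2 and 11.2 on chromosome Z. The part of this in the value of 0.780 was not tested. No intervals were computed for these correlations. The largest rise in height percentile on the short arm, by the same rule as above, was 63.4 points, at chr4:10479078-10479652 in *primpol* and chr4:10479258-10479606 in wild type. Its height was 20.99 in *primpol* and 11.95 in wild type, and its fold enrichment was 1.92 in *primpol* and 2.33 in wild type. The largest fall was of -68.97 points, at chr4:1810670-1811496 in *primpol* and chr4:1810647-1811623 in wild type, with a height of 15.7 in *primpol* and 19.4 in wild type. On the long arm the largest fall was of -80.4 points, at chr4:38247586-38248323 in *primpol* and chr4:38248077-38248281 in wild type, where the height was 13.95 in *primpol* and 18.4 in wild type. The fold enrichment there was 2.27 in *primpol* and 2.84 in wild type. The percentile of fold enrichment changed by -12.3 points for the rise and 4.15 points for the fall on the short arm, and by 0.554 points for the rise and -38.6 points for the fall on the long arm.

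**Figure D5:**
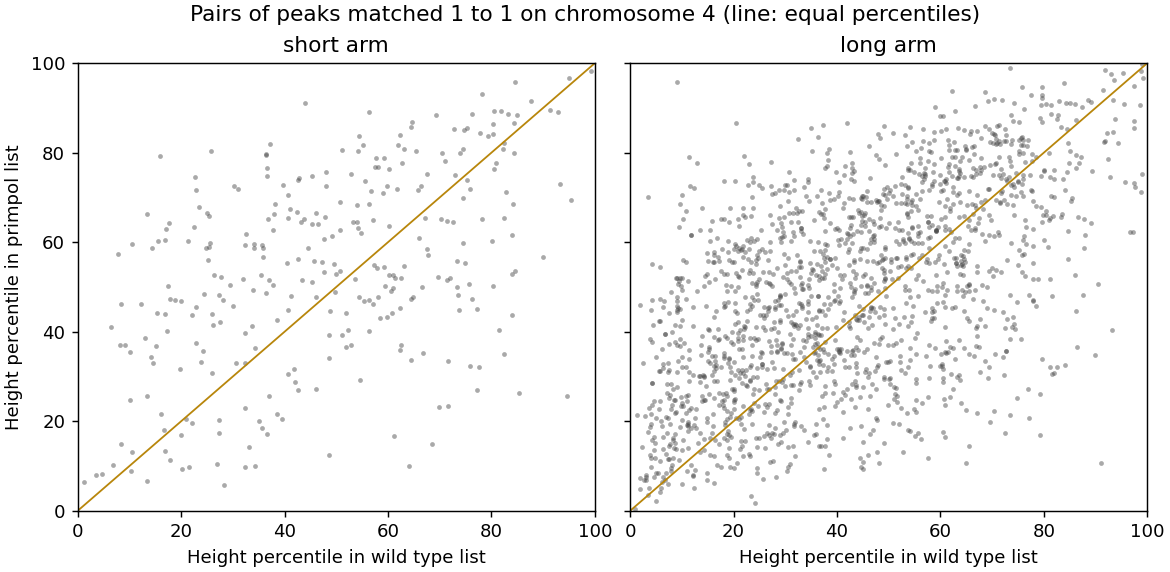
Height percentile within the *primpol* list (vertical axis) against that within the wild type list (horizontal axis) for pairs of peaks matched 1 to 1, with 311 pairs on the short arm (left) and 1751 on the long arm (right). Each point is a pair and the line marks equal percentiles. Points scatter more widely on the short arm, where the Spearman correlation of height was 0.443, against 0.552 on the long arm.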

How the data were processed

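DRIP-seq reads were trimmed by the authors with Trim Galore 0.4.4 and aligned with Bowtie2 2.2.6 to chicken (Galgal5) and *Drosophila* genomes, and uniquely matching reads were kept. The authors called peaks with MACS2 2.1.1.20160309 in broad mode against the input of the same genotype, at q-value thresholds of 0.05 and 0.1. The deposited height is a pileup signal, scaled to the smaller of the DRIP and input data, with no spike-in scale. The deposited fold enrichment is a ratio to local background, with 1 added to each term. The deposited −log10 p-values and −log10 q-values are the peak caller's, averaged over each peak. How the replicates were merged into the single DRIP alignment named by each list is not given by the sources used here.

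Lambda was computed as (height + 1) / fold enrichment − 1. The short arm was taken as 20 Mb, and the long arm to the last peak end, 91158596. Density ratios have exact conditional Poisson intervals, shares Wilson, differences of shares Newcombe, and medians binomial order-statistic intervals. Ratios of medians have bounds from both medians' limits. No tests over peaks were made, since peaks of a list are not replicates. Peaks named are the 3 highest and the widest of each arm and list, the pairs with the largest change in height percentile, and those beside the division. Alternatives moved the division, the threshold, the overlap, the merging of peaks, the arm length and the input depth. Members, comparisons and rules were chosen with earlier results of these data known. The functions were tested on simulated data, where scaling to a lower input depth kept slightly fewer peaks than a list read at that depth, the more so the lower the depth. Python 3.11.15, numpy 2.4.6, pandas 2.3.3, scipy 1.17.1 and matplotlib 3.10.9 were used. Chicken genes and sequence were not analysed here, and RNase H-treated libraries and spike-in reads were not used.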

Additional observations from a re-analysis of the deposited data

How the results depend on the processing

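Of 123 values recomputed for 17 results, 109 stayed within the interval of the value reported and 14 moved out of it. Covered length had no interval of its own, and that of the density ratio was scaled to it. Of the results beyond counting error, 0 changed direction. The others could not be counted as turned round. The 109 include the ratio of density ratios with bins without peaks left out of the length, which could not change because arm lengths cancel. With 100 kb bins that held no peak in either list left out of the length, the ratio of density, short over long arm, was 0.742 in *primpol* and 0.743 in wild type, and that of covered length 0.719 in *primpol* and 0.730 in wild type; by construction this shortens the short arm more, by 27 bins against 9. Leaving out parts of the short arm was chosen after the data were seen. Without its first 4 Mb the ratio of density was 0.750 in *primpol* and 0.720 in wild type, and that of covered length 0.748 in *primpol* and 0.729 in wild type. Without 4 to 8 Mb they were 0.537 in *primpol* and 0.563 in wild type for density, 0.475 in *primpol* and 0.518 in wild type for covered length, and the difference in shared peaks in wild type was -7.87 percentage points, against -1.02 without the first 4 Mb. All of these ratios of density and covered length stayed below 1. With the *primpol* list scaled to the wild type input depth, by a factor of 0.763, which left 29511 *primpol* peaks, the ratio of list shares on the long arm was 0.993. When a partner within 1 kb was allowed, the difference in shared peaks in wild type was -4.16 points, with an interval of -8.05 to -0.531. No paired analysis was possible because both replicates of a genotype went into a single list, and this also kept any replicate from being left out. How far the lists would differ between libraries of 1 genotype is unknown.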
